A study of Mus musculus with 23 samples.

Results

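The 8 genes described here mark successive stages of the oligodendrocyte lineage, the glial cells that make myelin in the brain. They were chosen as named genes from earlier results of these libraries, by matching the Ensembl identifiers of the count tables to the GRCm39 annotation, and all 8 were found among the 56941 genes listed. *Olig1*, *Olig2*, *Sox10*, *Pdgfra*, *Cspg4* and *Gpr17* stand for the precursor side (6 genes) and *Mbp* and *Cnp* for the myelin side (2 genes). All 8 passed the filter on low counts that left 14488 genes for testing. RNA was measured in 23 libraries of primary hippocampal neurons taken from newborn (P0) mice homozygous for Nedd8cKO, an allele with LoxP sites before exon 2 and after exon 3 of *Nedd8*, made in FVB/N eggs, and the mice are listed as homozygous in C57BL/6N. The cultures were infected on day 1 in vitro with lentivirus expressing either RFP, the control (11 libraries), or CRE recombinase tagged with RFP, which removes the floxed exons (12 libraries). Both viruses used the Synapsin1 promoter, which is active in neurons, so that cells of the oligodendrocyte lineage are not the cells in which CRE was meant to act. Both groups carry the floxed allele and differ in the virus. The legends of the study count 3 biological replicates per virus, read here as the cultures, so libraries of a culture are not separate replicates. The p-values over libraries measure the spread between libraries and may be too small. The labels give 12 days in culture and the Methods section 13, and the sex of the pups was not used here.

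During development, proliferating oligodendrocyte precursors carry the receptor for platelet-derived growth factor and the proteoglycan NG2 on their surface. Under the control of the transcription factors of the Olig and Sox families they leave the cell cycle, pass through a short committed stage marked by the receptor Gpr17, and then switch on the genes of the myelin sheath. Cultures of newborn brain hold such cells beside neurons and astrocytes.

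The comparison of CRE with RFP used 21 libraries, 11 CRE and 10 RFP, without the CRE library 3-3 and the RFP library 3-2, as in the count table of the study. Libraries are named here by virus, by the number read as the culture and by the library number, as in Cre2-4. Neither the labels nor the paper say in words that the first number is a culture. Total counts ran from 7430401 to 13345552 in these CRE libraries and from 9833872 to 17112815 in the RFP libraries. The libraries left out had 1546796 counts (Cre3-3) and 7635735 counts (RFP3-2), with 24.16% of the latter from *Rn18s-rs5*. Cre1-3, Cre3-3 and RFP2-4 stood apart from the rest, with 0.261%, 1.833% and 3.435% of counts from mitochondrial genes against 6.997% to 11.095% in the other 20 libraries, and with Spearman correlations across genes between level and GC content of 0.73, 0.544 and 0.495. Results are therefore given also over all 23 libraries and over the 19 libraries without Cre1-3, Cre3-3, RFP2-4 and RFP3-2. *Nedd8* itself, the targeted gene, lay between 44.1 and 76.0 CPM (counts per 1000000 reads, with library sizes scaled by the trimmed mean of M-values) in the RFP libraries and between 5.92 and 18.0 CPM in the CRE libraries, so that the groups did not overlap (log2 fold change −2.44, SE 0.17, adjusted p = 6.98e-11, edgeR quasi-likelihood test). Every CRE library lay below every RFP library for 2.08% of all genes tested. Of the exon bases of *Nedd8*, 331 (20.9%) overlap *Gmpr2* on the other strand.

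The lineage was present in the RFP cultures on both sides, and 5 of its 6 precursor-side genes were lower in the CRE libraries, by amounts that differed widely. *Olig1* did not differ beyond its interval over the 21 libraries, a result that depended on the libraries used. The fitted log2 fold changes of CRE over RFP were −4.01 for *Gpr17*, −3.13 for *Sox10*, −2.60 for *Pdgfra* and −2.22 for *Cspg4*, against −1.0 for *Olig2* and −0.21 for *Olig1*. On the myelin side they were −0.99 for *Cnp* and −0.65 for *Mbp*. Because the genes were chosen with this comparison known, these values describe the libraries and test nothing. At an adjusted p under 0.05, 6 of the 8 genes were called lower and none higher, beside 30.2% of all genes tested called in either direction and 13.8% called lower, and nothing is read from that count. In RNA of a whole culture, fewer cells of the lineage and less RNA per cell cannot be told apart.

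*Sox10* encodes the HMG-box transcription factor that the lineage needs from the precursor stage to the expression of myelin genes (chr15:79039108-79049469, minus strand, GRCm39). Its level in the 10 RFP libraries was 8.77 CPM at the lowest, 78.5 CPM at the median and 112 CPM at the highest. In the 11 CRE libraries it was 0 at the lowest, 1.06 CPM at the median and 38.9 CPM at the highest. Cre1-2, Cre1-3 and Cre2-1 had no count, which allows up to 0.219, 0.409 and 0.278 CPM, and Cre1-1 had 3 counts. Cre2-4, Cre3-1 and Cre3-4, with 16.6, 35.3 and 38.9 CPM, lay above only RFP3-1, the lowest of the 10 RFP libraries. The next lowest, RFP3-3, was at 55.5 CPM. The other 8 CRE libraries lay below every RFP library. The 95% interval of the log2 fold change ran from −4.86 to −1.39.

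*Pdgfra* encodes the receptor through which platelet-derived growth factor keeps precursors dividing (chr5:75311994-75358876, plus strand). The RFP libraries lay at 51.4, 281 and 324 CPM (lowest, median and highest), and the CRE libraries at 0.136, 9.20 and 174 CPM. The same 3 CRE libraries were the high ones, at 78.6 CPM in Cre2-4, 146 CPM in Cre3-1 and 174 CPM in Cre3-4. The remaining 8 were below every RFP library. The lowest RFP library was RFP3-1, and the next lowest, RFP3-4, was at 207 CPM, above every CRE library. The 95% interval of the log2 fold change was −4.10 to −1.10.

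*Cspg4* encodes NG2, the proteoglycan after which these precursors are also called NG2 glia (chr9:56772317-56807187, plus strand). It was measured at 19.5, 74.5 and 95.2 CPM in the RFP libraries and at 2.93, 8.86 and 43.0 CPM in the CRE libraries. No CRE library was at or under 3 counts for *Cspg4*, unlike *Sox10* (4 libraries), *Gpr17* (3 libraries) and *Pdgfra* (1 library). Again 8 of 11 CRE libraries lay below the lowest RFP library, and the interval of the log2 fold change was −3.09 to −1.35. That RFP library was RFP3-1, and the next lowest, RFP2-2, was at 51.7 CPM, above every CRE library.

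*Gpr17* encodes a G-protein-coupled receptor that is switched on in committed precursors and off again before myelination (chr18:32076050-32082888, minus strand). Its RFP libraries lay at 11.2, 235 and 331 CPM, and its CRE libraries at 0, 1.21 and 78.8 CPM. The lowest RFP library was RFP3-1, and the next lowest, RFP3-3, was at 146 CPM, above every CRE library. Within the CRE group its order was not that of the other 3 genes, since Cre2-4 was the highest library with 78.8 CPM, followed by Cre3-4 with 35.5 CPM and Cre3-1 with 18.98 CPM. As a percentage of the RFP median, Cre3-1 held 44.9% of *Sox10*, 51.7% of *Pdgfra* and 48.5% of *Cspg4* but 8.08% of *Gpr17*. Cre2-4 held 21.1%, 28.0% and 43.2% of the first 3 genes and 33.5% of *Gpr17*. The 95% interval of the log2 fold change of *Gpr17* was −5.90 to −2.13, and 320 bases (5.9%) of its exons overlap *Lims2* on the other strand.

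*Olig2* and *Olig1* encode basic helix-loop-helix factors that specify the lineage and remain on in its later stages. They are neighbours on chromosome 16 (*Olig2* chr16:91019435-91025567 and *Olig1* chr16:91066660-91068821, both plus strand), 41092 bases apart. *Olig2* lay at 63.1, 190 and 245 CPM in the RFP libraries and at 39.8, 88.6 and 150 CPM in the CRE libraries (95% interval of the log2 fold change −1.44 to −0.55). The groups overlapped, since only 2 CRE libraries were below the lowest RFP library, RFP3-1. *Olig1* lay at 468, 732 and 961 CPM in the RFP libraries and at 284, 552 and 1685 CPM in the CRE libraries, with an interval of −0.62 to 0.21 that spans 0. In the 3 CRE libraries without a count of *Sox10*, *Olig1* was still at 507 CPM (Cre1-2), 1685 CPM (Cre1-3) and 548 CPM (Cre2-1), and *Olig2* at 63.9, 148 and 86.3 CPM.

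The *Olig1* value rested on the libraries that stood apart. Its highest values were 1685 CPM in Cre1-3 and, left out of the fit, 3252 CPM in Cre3-3, against at most 676 CPM in the other CRE libraries. Over all 23 libraries its log2 fold change was 0.28 (adjusted p = 0.521, edgeR). Over the 19 libraries it was −0.41 (adjusted p = 0.00776, edgeR), so that *Olig1* was called lower in that set. Without Cre1-3 alone it was −0.46, with an adjusted p under 0.05. No other library of the 21, left out alone, brought *Olig1* under that threshold. *Olig2* moved from −1.0 to −0.61 over all 23 libraries, where Cre3-3 held 333 CPM, and to −1.03 over the 19. The exons of *Olig1* have a GC content of 61.1% and those of *Sox10* 61.6%, and in Cre1-3 the former was the highest of the 11 CRE libraries while the latter had no count. After removal, per library, of the trend of counts on GC content, the log2 fold changes were −0.26 for *Olig1* and −1.06 for *Olig2*. The part of RNA quality in these levels was not tested.

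*Cnp* encodes the myelin enzyme CNPase, which is also present in precursors at a lower level (chr11:100465730-100482936, plus strand). It lay at 31.4, 86.4 and 116 CPM in the RFP libraries and at 15.6, 35.5 and 70.2 CPM in the CRE libraries (95% interval of the log2 fold change −1.47 to −0.50). The groups overlapped, with 3 of 11 CRE libraries below the lowest RFP library. Of its exon bases, 670 (16.5%) overlap *Dnajc7* on the other strand, and although the library kit keeps the strand, the strand setting of the counting is not given in the sources used here.

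*Mbp* encodes myelin basic protein, which compacts the sheath, and the same gene makes the golli transcripts that neurons express as well, which counts per gene do not separate (chr18:82493207-82603763, plus strand). It lay at 17.03, 69.5 and 111 CPM in the RFP libraries and at 29.8, 40.8 and 58.8 CPM in the CRE libraries. No CRE library was outside the range of the RFP libraries, and the 95% interval of the log2 fold change was −1.23 to −0.07. The CRE libraries lay close together (SD 9.47 CPM, n = 11), while the RFP libraries fell into high and low ones (SD 36.3 CPM, n = 10).

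**Figure D1:**
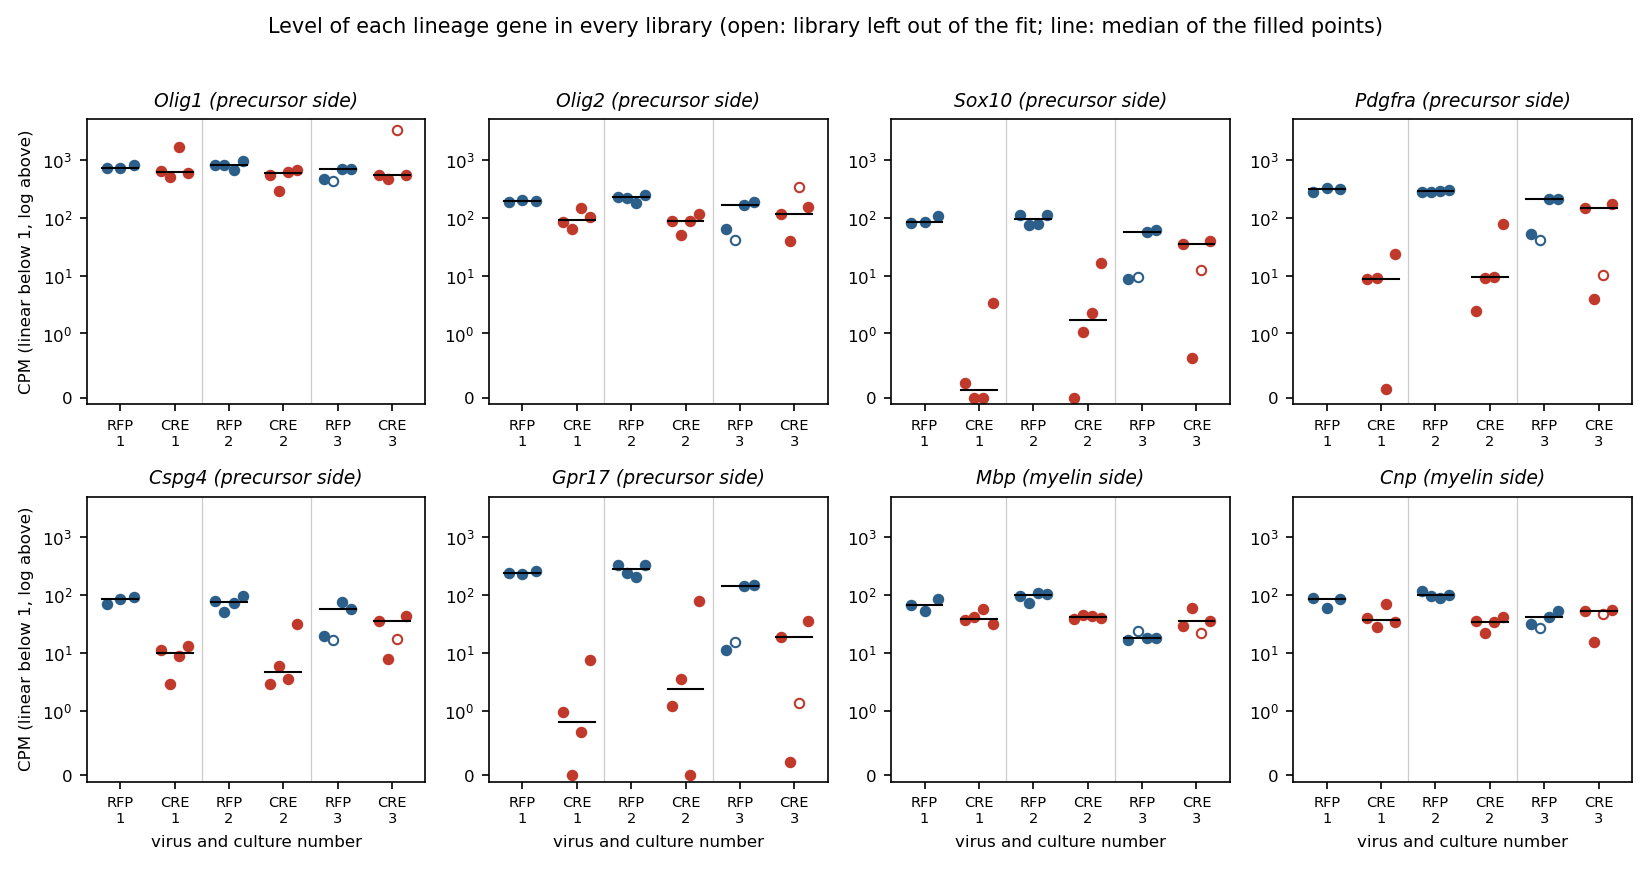
CPM of each of the 8 genes in every library (y axis, linear below 1 and logarithmic above), grouped by virus and culture number (x axis), with RFP in blue, CRE in red, open points for the 2 libraries left out of the fit and a line at the median of the filled points of each virus and culture. *Sox10*, *Pdgfra*, *Cspg4* and *Gpr17* spread over orders of magnitude among CRE libraries, with Cre2-4, Cre3-1 and Cre3-4 high, *Olig1* stays above 280 CPM in every library, and *Mbp* of the RFP libraries of culture 3 lies below all other RFP libraries.

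Promoters are shown for 4 of the 8 genes, since *Sox10* and the Olig factors are themselves transcription factors of the lineage. None is shown for *Olig1*, *Sox10*, *Gpr17* and *Mbp*, which does not mean that these genes lack a RefSeq entry. The promoters shown are those of RefSeq on GRCm38.p6, from 250 bases before to 50 after the start. They are chr5:75152001-75152300 for *Pdgfra*, chr9:56864854-56865153 for *Cspg4*, chr16:91225300-91225599 for *Olig2* and chr11:100574689-100574988 for *Cnp*, all on the plus strand. Capitals mark matches to ACAAAG or ACAATG, cores that Sox factors bind, and to CANNTG, the E-box that basic helix-loop-helix factors bind, searched on both strands with no base shared between the 2 kinds.
Pdgfra: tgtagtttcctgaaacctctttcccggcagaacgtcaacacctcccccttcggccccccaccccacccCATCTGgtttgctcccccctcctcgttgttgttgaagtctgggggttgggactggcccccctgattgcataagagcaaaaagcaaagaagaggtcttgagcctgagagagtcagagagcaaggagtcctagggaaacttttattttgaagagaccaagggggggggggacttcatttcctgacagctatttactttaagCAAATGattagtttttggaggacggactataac
Cspg4: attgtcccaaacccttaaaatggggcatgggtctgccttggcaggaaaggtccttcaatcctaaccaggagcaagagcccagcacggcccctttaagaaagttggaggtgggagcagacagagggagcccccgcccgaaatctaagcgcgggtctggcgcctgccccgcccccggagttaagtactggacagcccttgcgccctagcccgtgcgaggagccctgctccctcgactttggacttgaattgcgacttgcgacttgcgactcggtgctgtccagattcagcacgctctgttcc
Olig2: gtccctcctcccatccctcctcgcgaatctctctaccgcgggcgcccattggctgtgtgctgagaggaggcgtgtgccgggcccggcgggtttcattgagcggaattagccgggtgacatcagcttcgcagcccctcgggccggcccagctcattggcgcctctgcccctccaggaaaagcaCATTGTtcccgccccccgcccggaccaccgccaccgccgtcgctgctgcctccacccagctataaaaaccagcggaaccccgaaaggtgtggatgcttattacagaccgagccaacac
Cnp: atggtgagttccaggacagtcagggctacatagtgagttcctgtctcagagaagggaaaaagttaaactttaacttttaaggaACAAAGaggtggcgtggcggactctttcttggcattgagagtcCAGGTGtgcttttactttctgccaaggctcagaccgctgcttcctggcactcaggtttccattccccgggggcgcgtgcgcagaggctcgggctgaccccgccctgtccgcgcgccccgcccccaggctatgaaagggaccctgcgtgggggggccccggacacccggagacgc
*Pdgfra* held 2 E-boxes and no Sox core, *Cspg4* none of these motifs, *Olig2* 1 Sox core and no E-box, and *Cnp* 1 of each. Among 32841 promoters of the same length, ACAAAG was found in 18.7%, ACAATG in 12.6% and CANNTG in 72.3%. These matches describe the letters in a 300-base window and nothing of binding.

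Per kilobase of exon, the 8 genes had a different order in the 2 groups. The length is that of the merged exons of all annotated transcripts of a gene, so the order between genes depends in part on the annotation. In the RFP libraries *Olig1* had the highest mean level at 339 CPM per kilobase, followed by *Olig2* at 45.04 ± 12.0 (SD, n = 10), *Gpr17* at 39.7 ± 17.5, *Sox10* at 23.2 ± 9.37, *Pdgfra* at 20.6 ± 6.58, *Cnp* at 18.9 ± 6.93, *Mbp* at 6.60 ± 3.73 and *Cspg4* at 5.88 ± 1.90 CPM per kilobase. Apart from the steps from *Olig1* to *Olig2* and from *Cnp* to *Mbp*, neighbours in this order differed by less than the larger of their SDs. In the CRE libraries *Olig1* (298 ± 167, n = 11) and *Olig2* (22.9 ± 8.71) still led, but *Cnp* (9.70 ± 3.89) and *Mbp* (4.28 ± 0.972) came next. *Pdgfra* (3.43 ± 5.07), *Sox10* (2.68 ± 4.42), *Gpr17* (2.49 ± 4.51) and *Cspg4* (1.28 ± 1.22 CPM per kilobase) stood last and did not differ beyond their spread.

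The stages were set against each other within each library, as the log2 ratio of summed CPM of the 6 precursor-side genes to the 2 myelin-side genes. This ratio was 3.24 ± 0.40 (SD, n = 11) with CRE and 3.56 ± 0.50 (SD, n = 10) with RFP, a difference of −0.32 that is smaller than either SD. *Olig1* makes up most of the precursor sum. Without *Olig1* and *Olig2*, a choice made after the values were seen, the ratio was −1.30 ± 1.99 in CRE and 2.12 ± 0.60 in RFP libraries, and 8 of 11 CRE libraries lay below every RFP library. The range of this ratio was −3.73 to 1.67 in CRE and 0.91 to 3.02 in RFP libraries. The lowest RFP library was RFP3-1, and the next lowest, RFP2-3, was at 1.71. The summed level of *Sox10*, *Pdgfra*, *Cspg4* and *Gpr17* was 6.58 to 48.4 CPM in 8 CRE libraries and 206, 236 and 291 CPM in Cre2-4, Cre3-1 and Cre3-4, while *Mbp* and *Cnp* together stayed between 66.0 and 91.8 CPM in all CRE libraries but Cre1-3, where they reached 128 CPM.

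**Figure D2:**
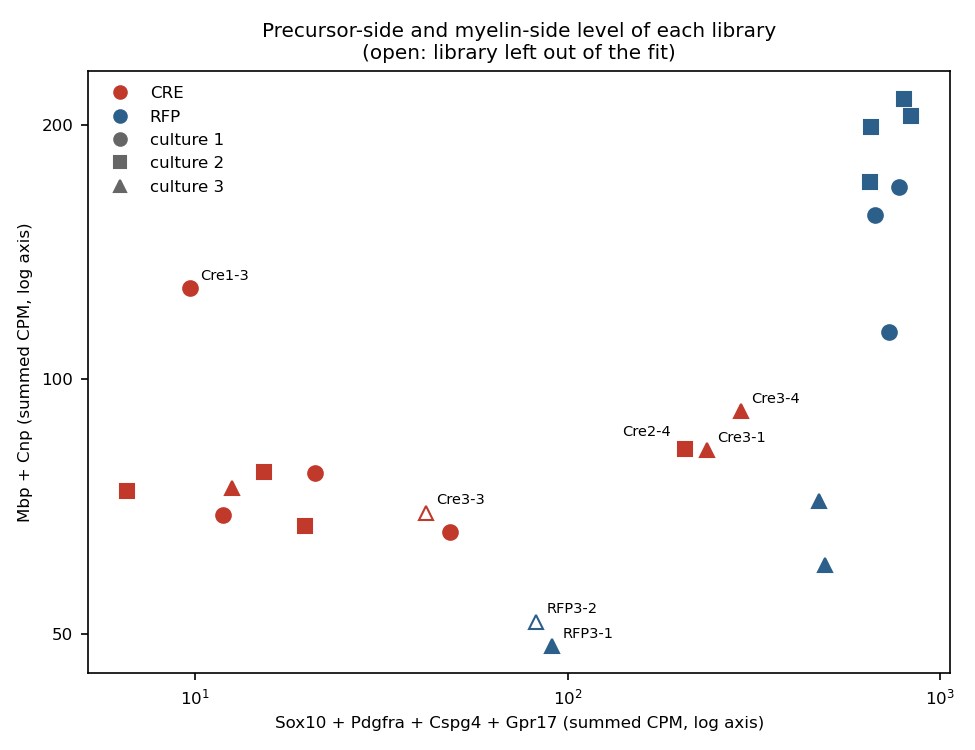
Summed CPM of *Sox10*, *Pdgfra*, *Cspg4* and *Gpr17* (x axis, log scale) against summed CPM of *Mbp* and *Cnp* (y axis, log scale) in each of 23 libraries, with red for CRE, blue for RFP, a symbol for each culture and open symbols for the 2 libraries left out of the fit. The CRE libraries spread from 6.58 to 291 CPM along the x axis and, apart from Cre1-3, only from 66.0 to 91.8 CPM along the y axis, and the RFP libraries of culture 3 lie lower than those of cultures 1 and 2.

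Other values of the 3 CRE libraries that were high in the precursor genes are set beside them here. *Nedd8* was at 12.2, 18.0 and 15.1 CPM in Cre2-4, Cre3-1 and Cre3-4, against 5.92 to 13.0 CPM in the other 8 CRE libraries, a range that takes in Cre2-4. Their summed astrocyte markers (4788 to 5199 CPM) and neuron markers (4275 to 5192 CPM) also lay within the range of the other 8. The summed CPM of the 8 markers of dividing cells was 111, 186 and 165 in these 3 libraries, 2.32 to 90.2 in the other 8 and 170 to 319 in the RFP libraries. The markers of dividing cells are shared by every cycling cell, and all 8 of 8 were called lower in CRE, beside 13.8% of all genes tested. Their median log2 fold change was −1.50, beside 0.02 over all genes tested. *Mki67*, a nuclear protein of cycling cells, fell from a median of 89.4 to 18.8 CPM (log2 fold change −1.93, SE 0.41, adjusted p = 0.000678, edgeR), with all 11 CRE libraries below every RFP library, where 2.08% of genes did so. Whether these values have a part in the levels of the lineage genes was not tested.

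Other cell types were checked with marker lists. Of all genes tested, 13.8% were called lower and 16.4% higher in CRE. Of 9 fibroblast and pericyte markers tested of 12, none was called lower and 3 were called higher in CRE (*Rgs5*, *Foxc1* and *Pdgfrb*), and their summed level was 180 to 561 CPM in CRE and 23.5 to 189 CPM in RFP libraries. *Dcn* was lowest in the list (−1.08, adjusted p = 0.127). *Pdgfra* and *Cspg4* are known in these cells too, and the part of such cells in their levels was not tested. Of the 4 Schwann cell markers, cells that express *Sox10* too, only *Prx* was tested, at a log2 fold change of 0.41. Neuron markers were called lower in 5 and higher in 1 of 8, with sums of 2536 to 5800 CPM in CRE and 5729 to 6983 CPM in RFP libraries, and astrocyte markers lower in 3 and higher in 2 of 9. Of 9 microglia markers only *Tmem119*, called higher, and *Csf1r* were tested, with sums of at most 8.06 CPM, and of 5 endothelial markers only *Kdr*, called lower.

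The effect of CRE was then compared between the 3 cultures, a comparison that the choice of the genes did not use. It takes CRE and RFP libraries of the same number as one culture, which the labels do not say. For *Mbp* it changed direction, with log2 fold changes of −0.73 (SE 0.24) in culture 1, −1.22 (SE 0.23) in culture 2 and 1.2 (SE 0.26) in culture 3. The interaction of virus and culture had an adjusted p of 0.0305 for *Mbp* (edgeR quasi-likelihood test), and this was the only call among 14488 genes (0.0069%). Each culture stands alone here, so the p measures the spread between libraries of a culture and not that between cultures. The other 7 genes had an adjusted p of 0.978 each in this test. Unadjusted, *Sox10* (p = 0.00853), *Cnp* (p = 0.0149) and *Pdgfra* (p = 0.0262) were under 0.05 in the same edgeR fit, beside 4.11% of all genes.

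The call did not hold under every choice of libraries. *Mbp* had the smallest interaction p of all genes in each of the fits over 21, 23 and 19 libraries, over the 21 libraries that remain when Cre1-3 and Cre3-3 are left out instead, and in all 21 fits that left out 1 library. Its adjusted p was 0.181 over all 23 libraries and 0.000467 over the 19, and it ran from 3e-04 to 0.305 when each library was left out in turn, with 5 of 21 fits under 0.05 (without Cre1-3, Cre3-1, RFP1-2, RFP1-3 or RFP2-2). Without Cre1-3 it was 3e-04 and 20 genes were called, and without RFP3-1 it was 0.305. The log2 fold change in culture 3 ranged from 0.79, without Cre3-2, to 1.32 in those fits.

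The difference lay in the RFP libraries. *Mbp* was at 17.03, 18.4 and 18.4 CPM in the RFP libraries of culture 3, against 53.6, 66.4 and 84.6 CPM in culture 1 and 72.6, 98.4, 103 and 111 CPM in culture 2. In the CRE libraries the means were 41.9, 41.9 and 41.3 CPM in cultures 1, 2 and 3. RFP libraries of culture 3 had a log2 fold change of −2.18 (SE 0.25) against those of cultures 1 and 2. The adjusted p of this contrast was 0.000202 (edgeR), again the only call among 14488 genes, or 0.0069%, in this fit. Culture 3 is a single culture, so the p measures the spread between libraries of a culture and not that between cultures. The contrast is a part of the interaction above and rests on the same libraries, so its call is not separate support. The call held in all 21 fits that left out 1 library, with log2 fold changes of −2.26 to −2.09 and adjusted p of 1.11e-06 to 0.00903. These fits still compare a single culture. Over all 23 libraries, where RFP3-2 had 24.3 CPM, the contrast was −2.06 (adjusted p = 0.000227, edgeR). *Mbp* was not the only call in other sets of libraries. Called were 22 of 14382 genes over all 23, 66 of 14666 over the 19 and 342 of 14482 over those left by the Methods section. In CRE libraries the log2 fold change of culture 3 against cultures 1 and 2 was −0.01 (SE 0.21, adjusted p = 0.997, edgeR, over the 21 libraries).

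Several other myelin genes lay lower in the RFP libraries of culture 3 as well, without passing the threshold in the same fit. *Ermn* (log2 fold change 1.14, SE 0.82), *Trf* (0.96, SE 0.42) and *Qdpr* (0.25, SE 0.26) of the myelin list were higher in those libraries, also without a call. *Cnp* was at 31.4, 41.9 and 53.4 CPM there, against 60.3 to 116 CPM in the other RFP libraries (−1.09, SE 0.33, adjusted p = 0.380). *Mag*, a myelin adhesion protein that was too low to be tested, was at 0.206 to 0.404 CPM in culture 3, at 1.28 to 5.54 CPM in culture 1 and at 3.17 to 6.36 CPM in culture 2. The median over the 14 tested genes of the myelin list was −0.76, beside 0 over all genes tested. It was −1.03 over the 11 other committed precursor genes, −0.78 over the 6 precursor-side members, −0.38 over the 15 other precursor genes and −0.58 over the 9 astrocyte markers, so that lower medians in these libraries were not particular to the myelin list. Over the 19 libraries *Sirt2*, a deacetylase abundant in oligodendrocytes, passed the threshold (−0.65, adjusted p = 0.0180, edgeR), beside 66 calls among 14666 genes. Over the libraries left by the Methods section *Cnp* passed it (−1.2, adjusted p = 0.0182, edgeR), as did *Sirt2* (−0.71, adjusted p = 0.00225). That was beside 342 calls among 14482 genes.

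On the precursor side no gene passed the test of the interaction, and the values within cultures are given as a description. Within culture 3 the log2 fold changes of CRE over RFP were −0.75 (SE 1.11) for *Sox10*, −0.54 (SE 1.05) for *Pdgfra*, −0.83 (SE 0.71) for *Cspg4* and −2.47 (SE 1.48) for *Gpr17*, all with an SE of at least 0.71. Within culture 1 they were −6.61 (SE 1.31), −4.87 (SE 1.09), −3.23 (SE 0.69) and −6.71 (SE 1.62). Within culture 2 they were −4.26 (SE 1.1), −3.56 (SE 1.0), −2.77 (SE 0.65) and −3.76 (SE 1.35). Culture 3 held 2 of the 3 CRE libraries that were highest in these genes, and the RFP library RFP3-1 that was lowest for all 4 of them. With counts summed per culture and group, 3 against 3, the members called fell from 6 to 3 (*Olig2*, *Cspg4* and *Cnp*), and without culture 2 to 2 (*Cspg4* and *Gpr17*) with 13 libraries left. The log2 fold changes without culture 2 were −2.57 for *Sox10*, −2.15 for *Pdgfra*, −0.72 for *Olig2* and −0.50 for *Cnp*, none with an adjusted p under 0.05.

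**Figure D3:**
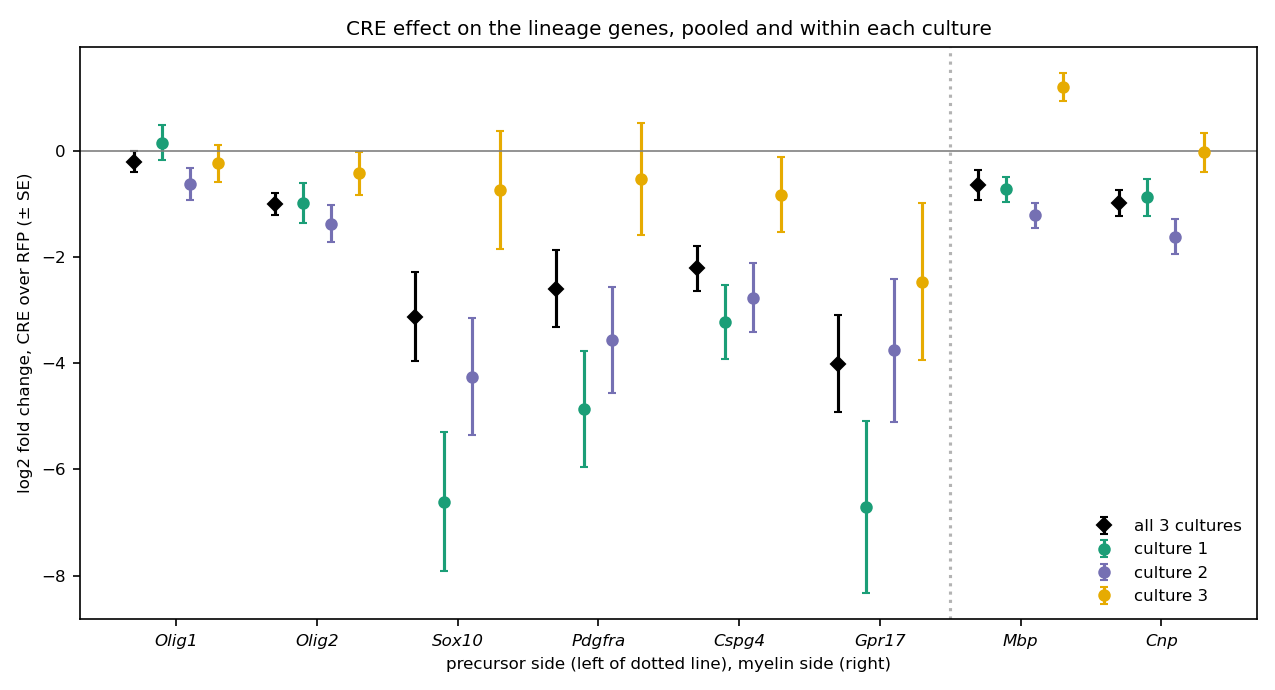
Log2 fold change of CRE over RFP (y axis, bars ± SE of the edgeR fit) for each of the 8 genes (x axis), over all 3 cultures (black diamonds, 21 libraries) and within each culture (coloured points). *Mbp* is negative in cultures 1 and 2 and positive in culture 3 (1.2). For *Sox10*, *Pdgfra*, *Cspg4*, *Gpr17*, *Olig2* and *Cnp* the values within culture 3 are closer to 0 than those within cultures 1 and 2.

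The rest of the lineage was followed with 4 further lists of genes. Of 15 other precursor genes, all tested, 8 fell, 1 rose and 6 did not pass the test (median log2 fold change −0.69). Among those that fell with the smallest p were *Rlbp1* (−1.30, SE 0.23, adjusted p = 9.87e-05), *Tnr*, which encodes the matrix protein tenascin-R (−1.02), *Pcdh15* (−1.26), *C1ql1* (−2.20) and *Megf11* (−0.69). *Tnr* fell from a median of 311 to 156 CPM. *Matn4*, chosen after its value was seen as the one that rose, had medians of 3.87 CPM in CRE and 1.31 CPM in RFP libraries (1.49, SE 0.54, adjusted p = 0.0400) and did not pass over the 19 libraries (adjusted p = 0.0593). All adjusted p of these lists are from the edgeR fit over all genes, and the background is 13.8% lower and 16.4% higher.

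Of 11 other genes of the committed precursor, all tested, 8 fell, none rose and 3 did not pass the test (median −2.57). *Sox8*, a relative of *Sox10*, fell by 1.48 on the log2 scale (SE 0.22, adjusted p = 1.08e-05), from a median of 66.3 to 22.6 CPM. *Enpp6*, a choline phosphodiesterase that marks newly forming oligodendrocytes, was at 1.58, 15.0 and 30.1 CPM (lowest, median and highest) in the RFP libraries and at 0, 0 and 2.90 CPM in the CRE libraries (−4.92, SE 0.76, adjusted p = 1.97e-05). At these levels it passed the filter on low counts through its RFP libraries. *Nkx2-2*, a homeobox factor that promotes differentiation, was at 3.30, 14.9 and 22.8 CPM in the RFP and 0.0732, 1.09 and 6.03 CPM in the CRE libraries (−3.08, SE 0.51, adjusted p = 4.58e-05). *Myrf*, the transcription factor that switches on myelin genes, was at 1.03, 8.91 and 19.3 CPM in the RFP and 0, 1.11 and 3.44 CPM in the CRE libraries (−2.96, SE 0.53, adjusted p = 0.000107), and the 2 groups overlapped. *Bcas1* (−3.51) and *Neu4* (−2.62) were the remaining ones among the 6 with the smallest p, while *Fyn*, *Tcf7l2* and *Itpr2*, chosen after their values were seen, had log2 fold changes of −0.22, −0.15 and −0.01. The exons of *Nkx2-2* and *Bcas1* overlap antisense genes over 350 bases (12.2%) and up to 440 bases (11.7%).

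Of 22 other myelin genes only 14 passed the filter on low counts, and of these 4 fell, 2 rose and 8 did not pass the test (median −0.09). *Ugt8a*, which makes the galactolipids of myelin, fell from a median of 16.7 to 1.27 CPM (−2.55, SE 0.48, adjusted p = 0.000196), and *Gal3st1*, which sulfates them, from 4.79 to 0.718 CPM (−2.48, SE 0.56, adjusted p = 0.00129). *Gjc3*, a connexin gene, fell as well (−2.42, SE 0.72, adjusted p = 0.0125). *Mal*, a proteolipid of myelin and of other membranes, rose from a median of 0.459 to 10.9 CPM (4.6, SE 0.59, adjusted p = 1.50e-06), and *Trf*, the iron carrier transferrin, from 2.02 to 9.39 CPM (2.60, SE 0.33, adjusted p = 1.01e-06), both with all 11 CRE libraries above every RFP library, where 2.64% of genes did so. *Mog*, found on the outer face of mature myelin, had medians of 0.988 CPM in CRE and 1.56 CPM in RFP libraries (0.21, SE 0.47, adjusted p = 0.791), but 1474 bases (64.6%) of its exons overlap *Zfp57* on the other strand. *Mag* had medians of 0 and 3.43 CPM and was not tested, like *Mobp*, *Opalin*, *Fa2h*, *Aspa*, *Nkx6-2* and *Gjb1*, among others. The 14 genes that passed are therefore not the whole list. *Mal*, at 0 to 1.66 CPM in the RFP libraries, passed the filter through its CRE libraries. Which genes were tested, and so the counts that fell or rose, depend on the filter. Without it 11 of the 22 other myelin genes were called.

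Signals that act on precursors were measured for 17 of 18 genes, of which 4 fell, 8 rose and 5 did not pass the test (median 0.18). Among the ligands, *Pdgfb* fell (−1.17, SE 0.19, adjusted p = 4.82e-05) and *Pdgfc* rose (1.31, SE 0.25, adjusted p = 0.000246). *Pdgfa*, which encodes the main ligand of the Pdgfra receptor, was at a median of 39.9 CPM in CRE and 34.4 CPM in RFP libraries (0.43, SE 0.16, adjusted p = 0.0472) and lost the call over the 19 libraries (0.32, adjusted p = 0.0609). An antisense gene overlaps 2552 bases (37.7%) of its exons. *Jag1*, a ligand of Notch, rose from a median of 13.0 to 43.4 CPM (1.51, SE 0.23, adjusted p = 1.51e-05). *Hes5*, a repressor induced by Notch that holds back differentiation, fell from 13.1 to 1.43 CPM (−3.27, SE 0.33, adjusted p = 4.11e-08), with all 11 CRE libraries below every RFP library, where 2.08% of genes did so. Its exons overlap an antisense gene over 440 bases (32.1%). *Igf1r*, the receptor for insulin-like growth factor, rose (1.13, SE 0.14, adjusted p = 1.07e-06), and *Lingo1*, an inhibitor of differentiation that neurons express as well, fell (−1.05, SE 0.22, adjusted p = 0.00068).

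**Figure D4:**
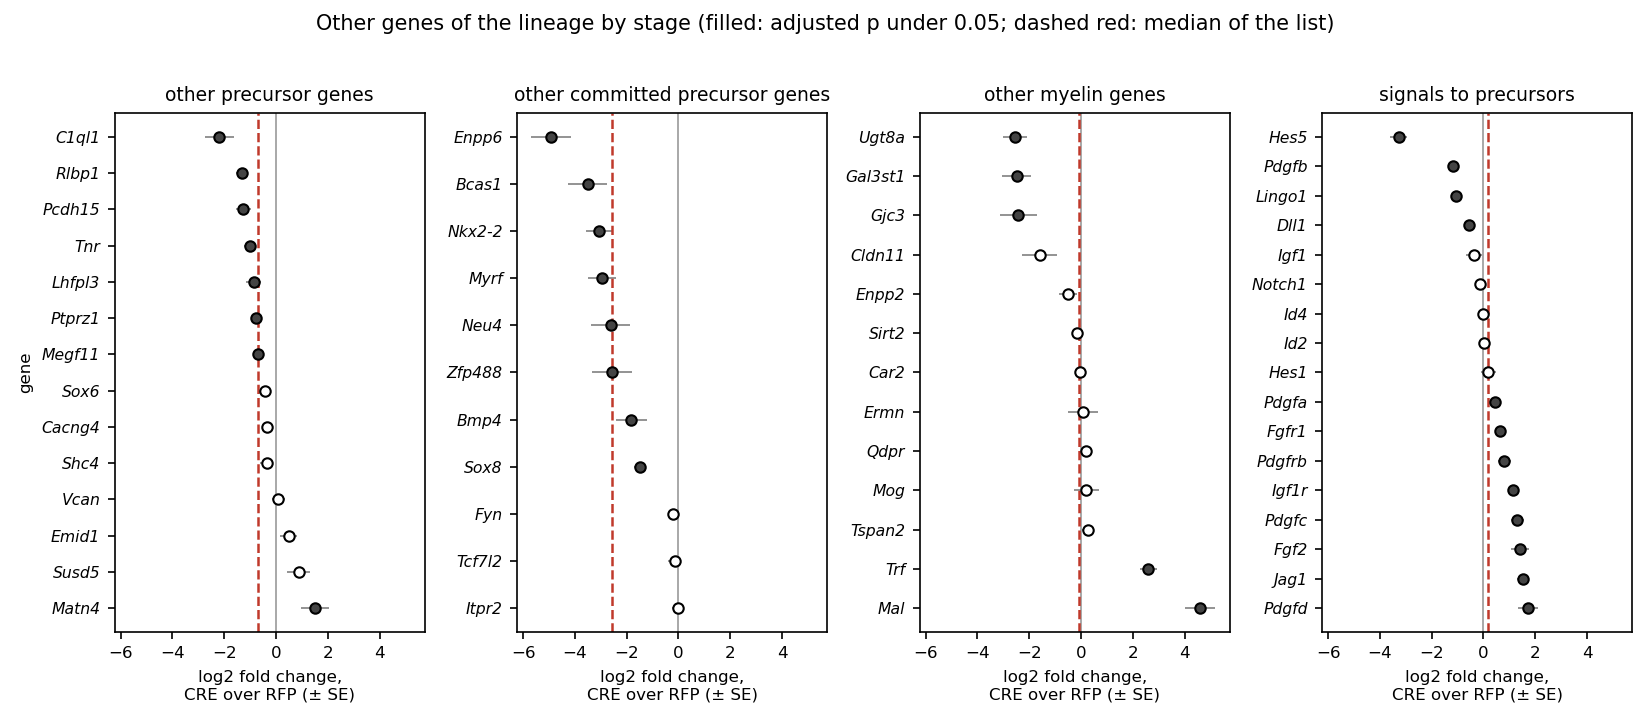
Log2 fold change of CRE over RFP (x axis, bars ± SE of the edgeR fit over 21 libraries) for the tested genes (y axis) of the 4 lists that are reported here, with filled points at an adjusted p under 0.05 and a dashed line at the median of each whole list. The committed precursor genes have the lowest median (−2.57) and 8 of 11 filled points on the left, while the myelin list is centred near 0 (−0.09) with *Mal* and *Trf* far to the right.

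Within groups, the 8 genes were compared by how they varied from library to library. The measure was Pearson's r of log2 CPM centred within CRE and within RFP over 19 libraries. Centring takes out the mean difference between the groups only. The uneven levels among CRE libraries, with Cre2-4, Cre3-1 and Cre3-4 high, remain in r, and their part in it was not tested. *Sox10*, *Pdgfra*, *Cspg4* and *Gpr17* varied together, with r of 0.78 to 0.919 between them. *Mbp* had r of 0.088 to 0.118 with these 4 genes, 0.255 with *Olig2* and 0.495 with *Cnp*. *Cnp* was closer to *Olig2* (0.874) than to *Mbp*, and *Olig1* was closest to *Olig2* (0.744). The points share library, depth and scaling factor, and the values are given as a description.

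**Figure D5:**
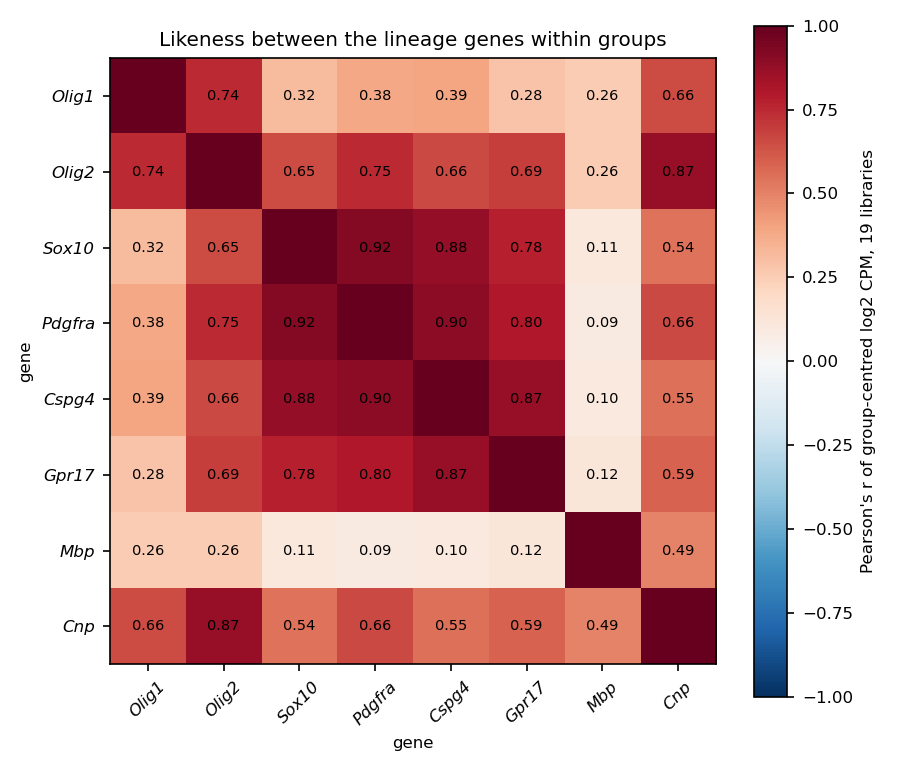
Pearson's r between each pair of the 8 genes (x and y axes) of log2 CPM centred within group, over 19 libraries, from blue (−1) through white (0) to red (1). *Sox10*, *Pdgfra*, *Cspg4* and *Gpr17* form a block of 0.78 to 0.919, and the row of *Mbp* is pale apart from *Cnp* (0.495).

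Among the 14480 other tested genes, those most like the mean of the 6 precursor-side genes by the same measure were *Zfp488* (r = 0.952), *Nkx2-2* (0.932), *Bcas1* (0.932), *Tmem100* (0.92) and *Smoc1* (0.889). The first 3 belong to the list of the committed precursor. They also ranked 1, 3 and 2 when values were centred by group and culture. For the mean of *Mbp* and *Cnp* the 5 closest included *Sirt2* (0.882), *Lgr6* (0.869), *Pex5l* (0.832) and *Cyb5r3* (0.826), of which *Sirt2* is on the myelin list. When centred by group and culture these 5 ranked between 146 and 967, with r of 0.531 to 0.697, against r of 0.885 to 0.952 for the 5 genes of the precursor side.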

How the data were processed

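RNA of 23 libraries was prepared with the Illumina Stranded mRNA Prep kit. Per the submitters' processing notes, bcl2fastq 2.20.0.422, STAR 2.7.8a and featureCounts 1.5.0-p1 were used with GRCm39. The deposited files hold whole-number counts of reads per Ensembl gene, not normalised, as the authors made them, and the strand setting of featureCounts is not given in the sources used here. Gene names came from a GRCm39 annotation, which named 56323 of 56941 identifiers (99.951% of counts).

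The 8 genes, the lists and the tests were chosen with earlier results of these data known. Genes that passed edgeR's filterByExpr (14488) were fitted in 21 libraries with TMM scaling, robust quasi-likelihood fits (edgeR 4.0.16, R 4.3.3) and Benjamini-Hochberg adjustment, and an adjusted p under 0.05 was called. The sources differ on which libraries were removed: the count table of the study lacks Cre3-3 and RFP3-2, while the Methods section names Cre1-3 and Cre3-3. The effect of CRE by culture and RFP culture 3 against cultures 1 and 2 were contrasts of a model with a term for each virus and culture. CPM used TMM factors over 14382 genes in all 23 libraries, and 3 counts equal 0.179 to 0.409 CPM in the 21 libraries. Intervals cover 95%. Counts were used without molecular identifiers, so floors cover counting error only. Named were the 8 genes, *Nedd8*, up to 6 called genes per list by smallest p, *Mag*, *Mog*, *Myrf*, *Pdgfa*, the 5 genes most like each side, and markers that bear on a member, and some genes under this rule are not reported here, though the counts and medians of their lists include them. The fits were tested on simulated data. Alternatives were other sets of libraries, DESeq2 1.42.0, RLE size factors, no filter on low counts, blocks by culture or library number, counts summed per culture, removal of GC trends and leaving out cultures or libraries, the last of these and those of the effect by culture being chosen after seeing the data.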

Additional observations from a re-analysis of the deposited data

Results flagged for a closer look

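In the 10 RFP libraries, RFP3-1 lay apart from the others for *Olig2*, at 63.06 CPM, and for *Pdgfra*, at 51.4 CPM, where the gap to the nearest library was 0.552 and 0.569 of the whole range, above the critical value of 0.466. The 8 genes were tested separately, and chance flags about 1 in 20 such tests. The CRE group has 11 libraries and was not tested this way. RFP3-2, left out of the fit, had 40.6 CPM of each of these 2 genes.

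The effect of CRE on *Mbp* differed between cultures by the test of the interaction (adjusted p = 0.03045, edgeR quasi-likelihood test). *Mbp* was lower in CRE in cultures 1 and 2 and higher in culture 3. This p measures the spread between libraries of a culture and not that between cultures. The adjusted p ranged from 3e-04 to 0.305 when each library was left out in turn, and was 0.181 over all 23 libraries.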

How the results depend on the processing

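Of the comparisons summarised by a count or main value, these moved. Without the filter on low counts 6920 genes and 11 of the other myelin genes were called, in place of 4370 and 6. With counts summed per culture 3 of the 8 lineage genes were called in place of 6. The effect of CRE by culture was called for 0 of the 8 genes and 0 genes in all over 23 libraries, and in all for 36 genes over the 19 libraries and 45 over those left by the Methods section. Of the 10 genes most like either side, 5 were still among the 50 closest when centred by group and culture. The log2 fold change of *Olig1* turned to 0.28 over all 23 libraries and to 0.05 without culture 2, in a range of −0.48 to 0.05 over the cultures and libraries left out. The causes of these changes were not tested, beyond the larger number of genes tested without the filter.

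Leaving out each culture or library in turn gave 2114 to 5507 genes called, 2 to 7 of the 8 lineage genes, 3 to 11 other precursor genes, 5 to 9 committed precursor genes, 3 to 9 myelin genes, 8 to 12 signals, −2.60 to −2.29 for *Nedd8*, a difference in stage ratio of −0.50 to −0.07, 0 to 1 of the 8 genes for the effect by culture and 0 to 20 genes for it in all. Most of the low counts came without culture 2 (2114 genes, 2 lineage, 3 precursor, 5 committed and 3 myelin genes).

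Culture and library numbers are shared between the groups, but the correlations of deviations were 0.021, 0.023 and 0.136 for cultures and −0.215 to 0.086 for library numbers, which do not meet the threshold for pairing (every correlation over 0.1), and whether CRE and RFP libraries of the same number share a culture is not stated in the labels. With culture as a replicate block 4267 genes and 6 of the 8 lineage genes were called, and with library number 4235 and 6. Depth limits *Sox10*, *Gpr17* and *Pdgfra*, which had 3 counts or fewer in 4, 3 and 1 of the CRE libraries.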
